A study of Homo sapiens with 5 samples.

Results

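Cytosolic ribosomal proteins are the proteins of the large and the small subunit of the ribosome that translates nuclear messenger RNA. Here they were read as 93 probe sets of 55 genes, out of 22283 probe sets on the array and 19065 that the platform's annotation assigns to 1 gene. Members were taken by symbol alone: RPL or RPS with a number and at most 1 suffix letter (A, L, X or Y), or RPSA, RPLP0, RPLP1 or RPLP2. Ribosomal S6 kinases, pseudogenes and mitochondrial ribosomal proteins were left out, as were 57 probe sets whose annotation lists a ribosomal protein beside other symbols, mostly those of small nucleolar RNAs. No probe set had RPSA or RPLP0 as its only symbol. Of the 93 probe sets 55 belonged to 34 genes of the large subunit (RPL and RPLP) and 38 to 21 genes of the small subunit (RPS). A single probe set stood for 32 of the genes, and the other 23 genes had up to 5.

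The samples were cultures of TF-1, an established human erythroleukaemia cell line that depends on growth factor, infected with a retroviral vector. Vector cells carried MSCV-GFP, the vector with a green fluorescent protein marker alone. Mutant SCL cells carried the vector with DbSCL, a form of SCL (the transcription factor encoded by TAL1) that cannot bind DNA. Per the labels all cells were deprived of growth factor overnight before 6 h of stimulation. Vector cells received GM-CSF at 5 ng/mL, Steel Factor (SF, which binds the receptor c-Kit) at 20 ng/mL, or erythropoietin (Epo) at a dose the labels do not give. Mutant SCL cells received SF or Epo. Each of the 5 groups had 1 array, so a difference compares 1 array with 1 other, without replicate error and without a p-value. No group was left without cytokine, and the labels do not say whether the infected cells were a pool or a clone. All 7 erythroid and progenitor genes measured (GATA1, KLF1, TAL1, EPOR, KIT, CD34 and NFE2) were above the detection floor, defined below, on every array. So were 7 of 13 markers of lymphoid, myeloid and fibroblast cells, for example LYZ and CD79A, while CD14, ELANE, CSF1R and COL3A1 were below it on every array.

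Ribosomal protein genes are among the most strongly transcribed genes of growing cells, and one copy of nearly every protein is built into each ribosome. Most of their messengers begin with a C followed by an unbroken stretch of pyrimidines, the terminal oligopyrimidine (TOP) element, through which growth factor signalling controls how well they are translated. That control acts on ribosome loading and need not change the amount of messenger, which is what an array reads. In red cell precursors the dose of these proteins matters: inherited loss of 1 copy of one of several of them causes Diamond-Blackfan anaemia, and loss of RPS14 contributes to the anaemia of the 5q deletion.

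The start sites show the TOP element in letters. RefSeq promoters (GRCh38.p14, 250 bases before to 50 after the annotated start) were found for 47 of the 55 genes. In 33 of the 47 genes (70.2%) the start base was a C that began a run of at least 5 C or T bases, against 5.14% of all 27305 genes with a promoter. A C alone at the start base was seen in 36 of the 47 genes (76.6%) and in 18% of all genes. The letters CCGGAAG, searched on both strands of that window, occurred in 38.3% of the ribosomal protein promoters and in 12.2% of all. Below are 50 bases around the start, 30 before it and 20 from it on, on the strand of the gene. The first 6 genes are those with a probe set that differed 2-fold in these data, and RPLP1, RPS19 and RPS28 stand for genes without one. Capitals mark the pyrimidine run that begins at the annotated start base.
RPLP2 (chr11:809937-809986, plus strand): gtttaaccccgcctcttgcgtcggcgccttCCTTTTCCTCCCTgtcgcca
RPS10 (chr6:34426050-34426099, minus strand): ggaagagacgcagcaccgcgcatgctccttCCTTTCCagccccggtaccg
RPL37A (chr2:216498814-216498863, plus strand): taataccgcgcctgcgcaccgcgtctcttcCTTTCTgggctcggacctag
RPL38 (chr17:74203648-74203697, plus strand): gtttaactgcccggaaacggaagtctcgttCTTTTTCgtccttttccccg
RPL14 (chr3:40457309-40457358, plus strand): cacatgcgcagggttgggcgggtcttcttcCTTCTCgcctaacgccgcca
RPL27A (chr11:8682762-8682811, plus strand): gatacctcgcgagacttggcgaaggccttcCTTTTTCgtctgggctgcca
RPLP1 (chr15:69452788-69452837, plus strand): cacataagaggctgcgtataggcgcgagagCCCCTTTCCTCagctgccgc
RPS19 (chr19:41860225-41860274, plus strand): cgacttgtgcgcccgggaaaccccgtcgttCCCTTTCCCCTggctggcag
RPS28 (chr19:8321466-8321515, plus strand): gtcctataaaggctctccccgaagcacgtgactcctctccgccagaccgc
The run was 13 bases long in RPLP2, 11 in RPLP1 and RPS19, 7 in RPS10, RPL38 and RPL27A, and 6 in RPL37A and RPL14, so genes with and without a 2-fold probe set both carried it. A second annotated start of RPS19 had no such run. In RPS28 the annotated start is an A and no run begins there, which says nothing of other start sites.

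Values are log2 signals per probe set as deposited. A floor was set at 4.45, the 40th percentile of all values outside the array controls, and lower values were raised to it. Where 5 values follow each other they stand for vector cells with GM-CSF, with SF and with Epo, then mutant SCL cells with SF and with Epo. Of the 93 probe sets 86 were above the floor on all 5 arrays, 1 on some and 6 on none, and 75 lay in the brightest 10% of all single-symbol probe sets. The 6 below the floor were 2 of RPL35A and 1 each of RPL37A, RPL3L, RPS14 and RPS6. RPL3L is the form of striated muscle, and the paralogues RPL10L, at 5.28 to 5.50, and RPL39L, at 4.77 to 5.04, were above the floor on every array. RPS27L, a relative of RPS27 known as a p53 target, was at 7.86, 7.98, 7.95, 7.48 and 8.01, with the mutant SCL SF array the lowest.

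As a group the ribosomal protein probe sets had smaller ranges over the 5 arrays than other bright probe sets. The highest minus the lowest of the 5 log2 signals had a median of 0.34 over the 86 probe sets above the floor on all arrays. It was 0.52 over the 1832 other probe sets of the brightest 10% and 0.40 over all 11038. The small subunit had a median range of 0.30 (35 probe sets) and the large subunit 0.37 (51 probe sets). Of the 86 probe sets 72 (83.7%) stayed within 1.5-fold over all 5 arrays, against 59.0% of the other bright ones. These ranges were not matched for signal: 23 members but only 49 others had a mean of 11 to 12. Of the 1832 others 1025 were lowest on vector GM-CSF. At a mean of 10 to 11 the quartiles of Epo minus GM-CSF spanned 0.12 in members and 0.42 in others. For mutant SCL minus vector under Epo they spanned 0.48 and 0.29, so members were not tighter in every comparison. The flattest were a probe set of RPS10, with a range of 0.04, both of RPL12, the stalk base protein (0.07 and 0.08), and one of RPS12 (0.07). Some deposited values repeat exactly between arrays. Of the 93 probe sets 36 (38.7%) held the same value on at least 2 arrays, as did 58.3% of all single-symbol probe sets.

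The first question is how ribosomal protein messengers stood under SF and Epo relative to GM-CSF, the factor the line grows in. Under SF the median log2 difference of 87 compared probe sets was 0.06, with 55 above 0 and 29 below, and under Epo it was −0.01 over 86, with 37 above and 44 below. The median over all compared probe sets was 0.00 in both. Strong signals as a class were higher on the SF and Epo arrays: the median of the other probe sets of the brightest 10% was 0.26 for SF minus GM-CSF and 0.34 for Epo minus GM-CSF as deposited, 0.33 and 0.43 with centred arrays, 0.015 and 0.016 with quantile and 0.05 and 0.08 with loess normalization. At like signal the ribosomal protein genes lay below the others up to a mean of 12. For Epo minus GM-CSF the 20 members with a mean signal of 8 to 10 had a median of −0.01 against 0.37 for 1085 others, and the 23 at 11 to 12 had −0.05 against 0.18 for 49 others. In the top range, 12 to 14, the 15 members had 0.09 and 18 others 0.00. The sign of the group's median for SF minus GM-CSF depends on the scaling, since it became −0.068 with quantile and −0.15 with loess normalization. For Epo minus GM-CSF these gave −0.22 and −0.29, with 70 and 75 of 86 probe sets below 0, whereas with each array centred on its median it was 0.08, with 27 below 0 and 59 above. Both comparisons share the GM-CSF array. The 3' minus 5' signal, a measure of RNA length, differed for SF minus GM-CSF by −0.74 for beta-actin and −0.61 for GAPDH. For Epo minus GM-CSF it differed by 0.11 and −0.14. What part it has in these medians was not tested.

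**Figure D1:**
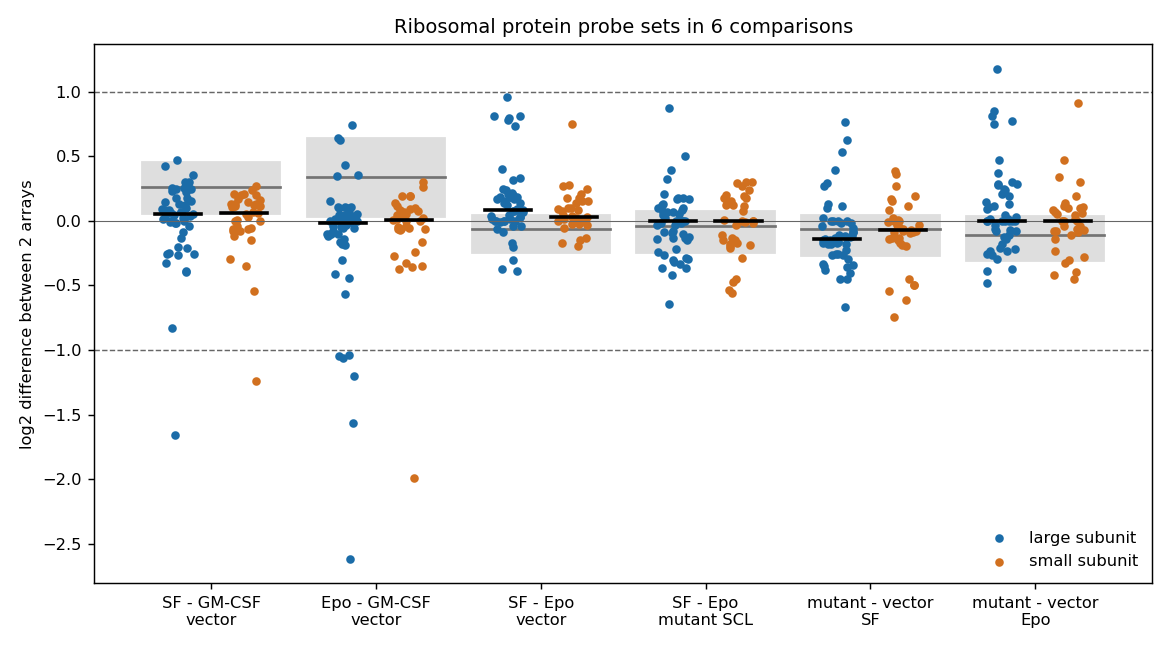
Log2 differences of the ribosomal protein probe sets (points) in 6 comparisons of 2 arrays each, large subunit in blue and small in orange, with black bars at the subunit medians. Grey boxes span the quartiles of the other probe sets of the brightest 10% with their median as a line, and dashed lines mark 2-fold. Subunit medians lie close to 0, below the grey median of 0.26 and 0.34 in the first 2 comparisons, and a tail of single probe sets reaches −2.61 for Epo minus GM-CSF.

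Beyond the group's centre stood a tail of single probe sets that were lower under Epo. At 2-fold or more 7 of 86 member probe sets were lower for Epo minus GM-CSF and 0 were higher. Over all 12200 compared probe sets 0.172% were lower and 3.42% higher, and in the brightest 10% 0.524% were lower. Thus 7 of the 21 lower probe sets among all compared (33.3%) were ribosomal proteins. For SF minus GM-CSF 2 of 87 were lower and 0 higher, against 0.0493% lower and 0.617% higher over all. The 7 probe sets belong to RPLP2, RPS10, RPL37A, RPL38 (2 probe sets), RPL14 and RPL27A. The 3 mildest, of RPL14, RPL27A and RPL38, lay just past 2-fold (−1.04 to −1.06), and the next member, a probe set of RPL18, was at −0.57. With each array centred on its median, 4 of the 7 remained at 2-fold.

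**Figure D2:**
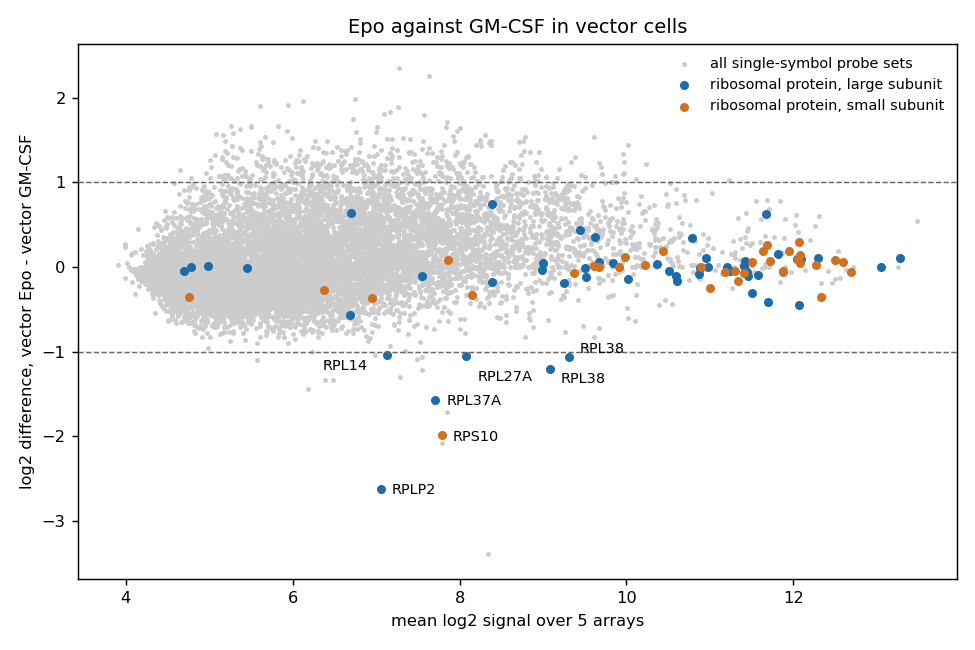
Log2 difference of Epo minus GM-CSF in vector cells (vertical axis) against the mean log2 signal over the 5 arrays (horizontal axis). Grey points are all single-symbol probe sets compared, blue and orange points those of the large and small subunit, and dashed lines mark 2-fold. Members with a mean above 10 lie between −0.45 and 0.62, and the 7 named ones lie at −1.04 to −2.61 with means of about 7 to 9.

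RPLP2 encodes one of the acidic P proteins, which with RPLP1 and RPLP0 form the stalk of the large subunit that recruits elongation factors. Its brighter probe set had log2 signals of 8.45, 6.79 and 5.83 in vector cells given GM-CSF, SF or Epo. In mutant SCL cells given SF or Epo it had 7.56 and 6.68. The signal under Epo was thus 6.12-fold and that under SF 3.16-fold below that under GM-CSF, and both mutant SCL arrays lay above the vector array of the same cytokine. The second RPLP2 probe set gave 4.75, 4.55, 4.75, 5.08 and 4.75 in the same order, so close to the floor that it can say little about the first. RPLP1, the stalk partner, gave 12.08, 12.11, 12.17, 12.09 and 12.00. Its highest and lowest arrays were thus 0.18 apart, and no array stood out.

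RPS10, a protein of the head of the small subunit, was read by 4 probe sets, all of a design (ending in _x_at) in which some probes may match other sequences. One gave 8.82, 7.58, 6.83, 7.94 and 7.75, again falling from GM-CSF through SF to Epo in vector cells. Its signal under Epo was 3.96-fold and under SF 2.36-fold below that under GM-CSF. The other 3, at mean signals above 11, differed by −0.04 to −0.06 in both comparisons. RPS10 thus counts as 2-fold lower by 1 of its 4 probe sets.

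RPL37A, a small zinc-binding protein of the large subunit, showed the same split. One probe set gave 8.31, 7.48, 6.74, 8.10 and 7.92, which in vector cells is 2.96-fold lower with Epo than with GM-CSF. Another gave 13.27, 13.29, 13.38, 13.17 and 13.27, with the Epo array the highest, and the third was below the floor on all arrays. The 2 measured probe sets therefore point in opposite directions for Epo minus GM-CSF (−1.56 and 0.11).

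RPL38, which lies at the surface of the large subunit, had 3 probe sets that were all lower under Epo. They gave −1.20, −1.06 and −0.41 for Epo minus GM-CSF, the last from the brightest. The first read 9.56, 9.17, 8.36, 9.17 and 9.17, and the second 9.76, 9.51, 8.70, 9.11 and 9.45. In both the vector Epo array was the lowest and the vector GM-CSF array the highest. RPL14 gave −1.04, −0.45 and −0.04 for Epo minus GM-CSF, its 2-fold probe set reading 7.59, 7.34, 6.55, 7.15 and 7.02. RPL27A had 1 probe set, at 8.45, 8.20, 7.40, 8.18 and 8.18, again with vector Epo as the lowest array.

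**Figure D3:**
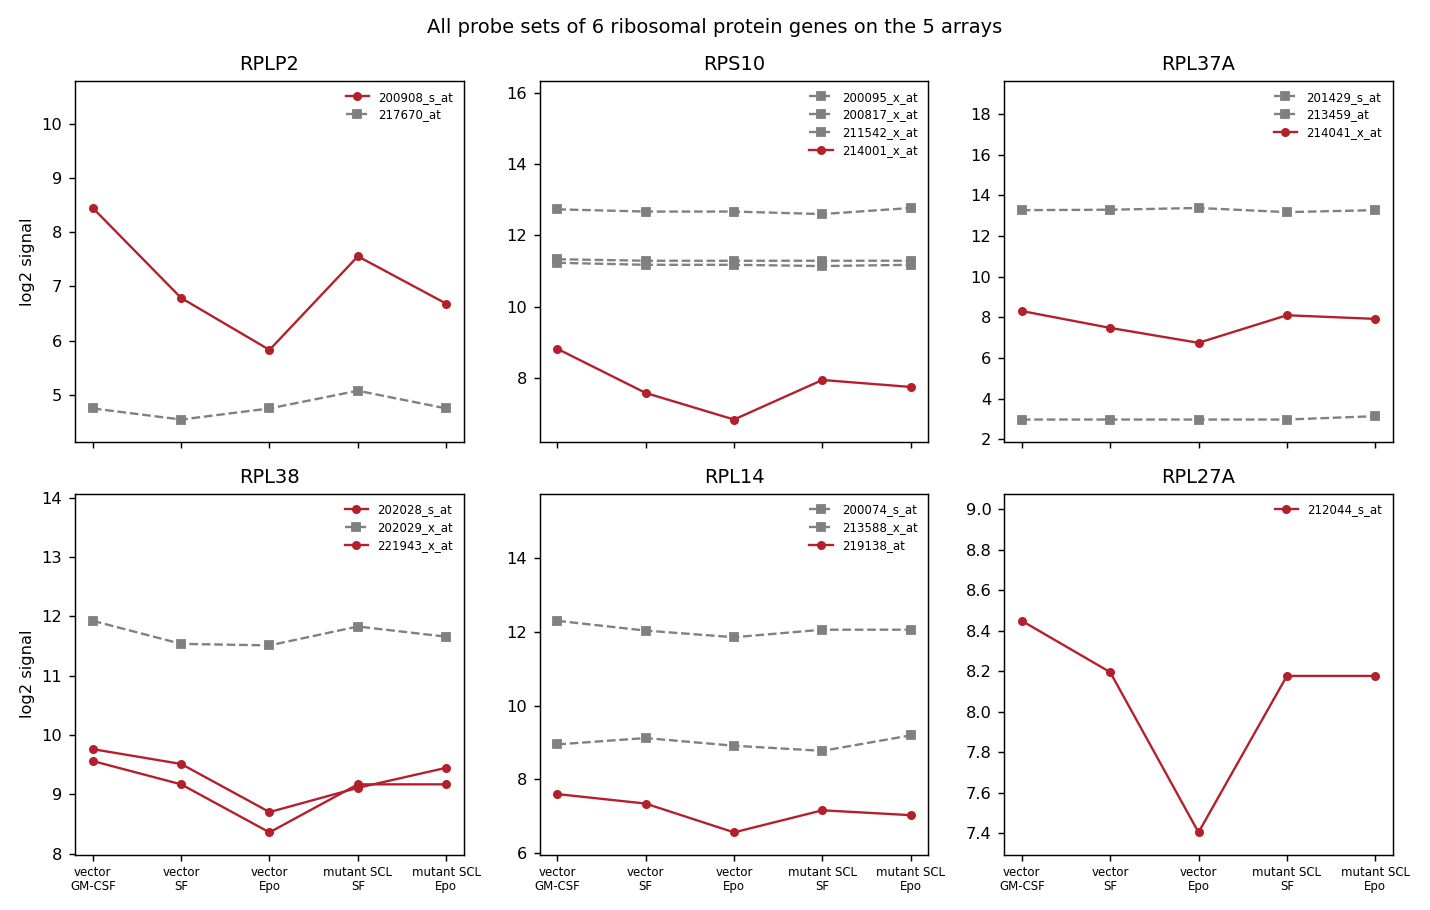
Log2 signal (vertical axis, a scale of its own in each panel) of every probe set of 6 genes on the 5 arrays. Red solid lines are probe sets with a 2-fold difference in any comparison, grey dashed lines the others, and lines only join values of 1 probe set. The red lines are highest for vector GM-CSF and lowest for vector Epo, while grey lines of RPS10 and RPL37A stay level.

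Disagreement between probe sets of a gene can be set against other genes. With several probe sets above the floor on all arrays, 21 ribosomal protein genes and 2195 others could be compared. For Epo minus GM-CSF the probe sets of 4 of the 21 genes (RPLP2, RPS10, RPL37A and RPL14) lay at least 1 log2 unit apart, where 7.49% of all 2216 genes did. For SF minus GM-CSF it was 2 of 21 (RPLP2 and RPS10) against 2.53% of all, for SF minus Epo in vector cells 1 of 21 (RPLP2) against 0.361%, and for mutant SCL minus vector under Epo 1 of 21 (RPL37A) against 1.04%. It was 0 of 21 for SF minus Epo with mutant SCL (1.31% of all) and 0 of 21 for mutant SCL minus vector under SF (2.08%). RPLP2 was counted against a second probe set which, at 4.55 to 5.08, lay close to the floor, so its gaps rest on a weak reading. The median gap was 0.24 in ribosomal protein genes and 0.32 in the others for Epo minus GM-CSF, and 0.24 and 0.27 for SF minus GM-CSF. It was 0.18 and 0.17 for SF minus Epo in vector cells, 0.33 and 0.25 for that contrast with mutant SCL, 0.25 and 0.25 for mutant SCL under SF and 0.31 and 0.20 under Epo. The standard deviation within genes, pooled over the 21 genes, was 0.56 for Epo minus GM-CSF and 0.33 for SF minus GM-CSF. Pooled over the 2195 others it was 0.33 and 0.26. That of the median gene was 0.17 in both for the 21 genes, and 0.20 and 0.17 for the others. The pooled values of the 21 genes include 2-fold lower probe sets described above. These values are the only measure of error here, and they describe probe sets on the same arrays, not cultures.

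The 7 probe sets had in common some features that their choice did not use. By design, 3 ended in _x_at, 3 in _s_at (probes shared by several transcripts) and 1 in a plain _at, while all 93 members split into 32, 35 and 26. None of the 7 had a RefSeq messenger as its annotated source sequence, whereas 38 of the other 86 did. The annotation gave other accessions for 5 of the 7 and none for 2, against 28 and 20 of the other 86. Ribosomal protein genes have many processed pseudogenes, and which messengers the _x_at and _s_at probes bind was not tested. The 7 were also alike in order over the arrays: each was highest on vector GM-CSF and lowest on vector Epo. The contrast of those 2 arrays chose them, so this order is a description. Of all 86 members 13 (15.1%) had that order, the 7 chosen ones among them, and of all 11038 probe sets 9.95%. The share of the members is raised by that choice, so it shows no excess of its own.

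Several, but not all, controls of the arrays were lower on the SF and Epo arrays too. The median signal of the 7 probe sets, taken on each array by itself, differed by −0.87 for SF minus GM-CSF and by −1.62 for Epo minus GM-CSF. The median of their own differences was smaller, at −0.39 and −1.20. The hybridization controls, which are added after labelling, differed by −0.50 and −0.94. The newer set of 28S ribosomal RNA controls gave −1.28 and −2.02, the older set −0.54 and −0.69, and the older set of 18S controls −0.80 and −1.56. The median signal of the other 79 members differed by 0.10 and 0.00. For mutant SCL minus vector under Epo the median signal of the 7 differed by 1.09, and the median of their own differences was 0.81. The hybridization controls gave 0.20 there, and the newer and older 28S sets 0.89 and 0.26. Other values ran otherwise: the poly(A) controls gave 0.02 for SF and 0.42 for Epo minus GM-CSF, and the hybridization controls were highest on mutant SCL SF (10.32 against 10.26 on vector GM-CSF). What part the controls' differences have in the 7 probe sets was not tested. Fewer cells expressing a gene and less messenger per cell cannot be told apart in such samples.

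**Figure D4:**
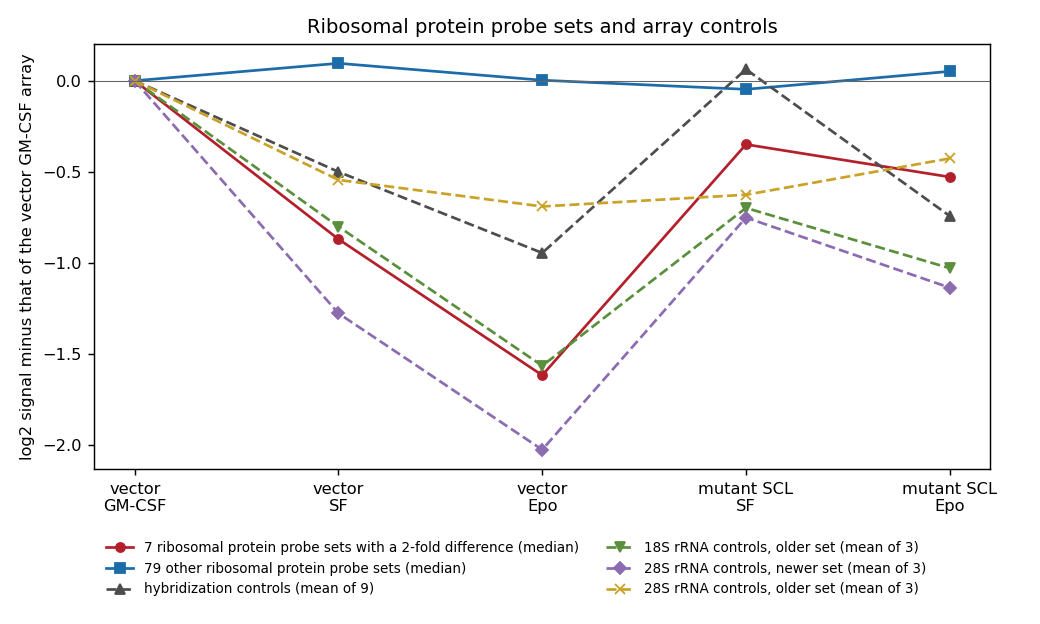
Log2 signal on each array minus that on the vector GM-CSF array, for the median of the 7 ribosomal protein probe sets with a 2-fold difference (red), the median of 79 other members (blue) and the means of array controls (dashed). The red line drops to −1.62 on vector Epo together with the dashed lines of the ribosomal RNA and hybridization controls, while the blue line stays within 0.10 of 0. Medians are taken on each array by itself, and the median of the 7 probe sets' own differences on vector Epo was −1.20.

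The members highest under SF and Epo relative to GM-CSF stayed below 2-fold. By the brightest probe set of each gene, RPL10A led for SF minus GM-CSF (0.42), followed by RPL6 (0.30), RPL11 (0.29), RPL29 (0.26) and RPL35A (0.25). For Epo minus GM-CSF it was RPL3, which lines the path to the peptidyl transferase centre (0.62), RPL10A (0.43), RPL36 (0.35), RPL6 (0.34) and RPS19 (0.30). RPL3 read 11.38, 11.63, 12.01, 11.73 and 11.63. RPL10A read 9.18, 9.60, 9.61, 9.49 and 9.32, and in both genes the GM-CSF array was the lowest. At 1.5-fold or more 3 of 86 probe sets were higher for Epo minus GM-CSF, against 12.8% of all compared, and 0 of 87 for SF minus GM-CSF, against 7.06%. Lower by as much were 7 for Epo minus GM-CSF, the probe sets described above, against 2.48% of all, and 3 for SF minus GM-CSF (RPLP2, RPS10 and RPL37A) against 1.34%. The 3 higher ones were RPL3, 1 of the 5 probe sets of RPL22 (0.74) and 1 of the 3 of RPL31 (0.64). The 4 other RPL22 probe sets gave −0.10 to −0.18 and the 2 other RPL31 probe sets −0.10 and −0.30.

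Between SF and Epo in vector cells the ribosomal protein group lay slightly higher under SF. The median difference was 0.07, with 60 of 87 probe sets above 0 and 18 below, where the other bright probe sets had −0.06 and all probe sets 0.00. The 3' minus 5' signal, a measure of RNA length, moved with this contrast, by −0.85 for beta-actin and −0.47 for GAPDH, and was lowest on vector SF among the 5 arrays. Its part in the difference was not tested. None reached 2-fold in either direction, against 0.017% of all higher and 0.0255% lower. At 1.5-fold 7 of 87 were higher under SF (0.467% of all), and they were the same 7 probe sets, by 0.73 to 0.96, and 0 were lower (1.16%). Those 7 were chosen as low on the vector Epo array, which this contrast uses too, so their return here is largely set by that choice. RPL11, which with RPL5 and ribosomal RNA binds MDM2 when assembly fails, was 0.40 higher under SF (9.77 against 9.37) and RPL35 was 0.33 higher. RPL3 (−0.37) and RPL36 (−0.30) were the lowest. In mutant SCL cells the same contrast had a median of 0.00, with 37 above and 43 below. None of 87 reached 2-fold, against 0.0333% of all higher and 0.2% lower, and at 1.5-fold 1 was higher (RPLP2, 0.991% of all) and 1 lower (a probe set of RPL31, 2.81%). RPLP2 was the highest there too (0.87), and RPS29 (−0.56), RPS27L (−0.53) and RPS25 (−0.45) were the lowest. The 6 other probe sets that were 1.5-fold higher under SF in vector cells ranged from −0.34 to 0.20 in mutant SCL cells.

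The second question is how the messengers differed with mutant SCL. Under SF the members were on the whole slightly lower with mutant SCL: the median was −0.11, with 61 of 87 probe sets below 0 and 21 above. The median of other bright probe sets was −0.06. The difference varied with signal. Members with a mean signal up to 8 had a median of 0.12 (15 probe sets, others 0.00), those at 8 to 10 −0.21 (20, others −0.08) and those at 10 to 11 −0.17 (13, others −0.03). At 11 to 12 members and others both had −0.04, and at 12 to 14 members had −0.07 and others −0.04. None reached 2-fold, against 0.409% of all lower and 0.025% higher, and at 1.5-fold 3 were lower (3.9% of all) and 2 higher (1.47%). The 3 lower were a probe set of RPS7 (−0.74), one of RPL31 (−0.67) and RPS25 (−0.61), and the 2 higher were RPLP2 (0.77) and RPL37A (0.62). RPS7 read 9.96, 10.22, 9.96, 9.48 and 9.96. Its mutant SCL SF array stood alone as the lowest, but the other RPS7 probe set gave −0.01. RPS25, needed by some viral internal ribosome entry sites, read 9.45, 9.60, 9.39, 8.98 and 9.43. RPS29 followed the same course at 11.91, 12.04, 11.87, 11.50 and 12.06, and RPS14 gave −0.50. The mutant SCL SF array was the single lowest array for 29 of the 86 members. It was so for 2044 of all 11038 probe sets and for 372 of the 1832 other bright ones. On that array the 3' minus 5' signal was 1.44 higher for beta-actin and 0.95 higher for GAPDH than on vector SF. Here too its part was not tested. With quantile or loess normalization the median was −0.02 or −0.03.

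Under Epo the group was centred at 0.00 with mutant SCL, with 42 of 87 probe sets above 0 and 35 below, while other bright probe sets had a median of −0.11. At 2-fold 1 probe set was higher, that of RPL37A (1.18), and 0 were lower, against 0.11% higher and 0.271% lower over all. At 1.5-fold 6 were higher, where 0.744% of all were, and 0 were lower (2.75%). All 6 higher ones were among the 7 described above: RPL37A, RPS10 (0.91), RPLP2 (0.85), RPL38 (0.81 and 0.75) and RPL27A (0.77). These differences rest on the vector Epo array, on which the same probe sets were low, and are no independent observation of it. RPS19 was lower by both of its probe sets (−0.45 and −0.40), RPL36 by −0.39 and RPL3 by −0.37. The group's median was 0.11 with either quantile or loess normalization and −0.03 with each array centred on its median.

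The mutant SCL differences under SF and under Epo come from separate arrays, so they can be set side by side. Over the 87 probe sets, 13 were above 0 under both cytokines, 26 below under both, 27 lower under SF and higher under Epo, and 6 the reverse, the other 15 having a 0. As shares these are 14.9%, 29.9%, 31.0% and 6.90%, against 23.3%, 25.5%, 13.4% and 15.3% of all 11677 probe sets. Pearson's r across them was 0.27 and Spearman's rho 0.07, against 0.31 and 0.29 over all. These describe probe sets of the same 4 arrays, which are not independent. At 1.5-fold 2 members were higher under both (RPLP2 and RPL37A) and 0 lower, and of all 11677 probe sets 8 were higher and 64 lower. By the brightest probe set of each gene, RPS14 was the gene of the lowest 5 under both cytokines (−0.50 and −0.30). An RPS14 probe set close to the floor gave 0.15 and 0.06.

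**Figure D5:**
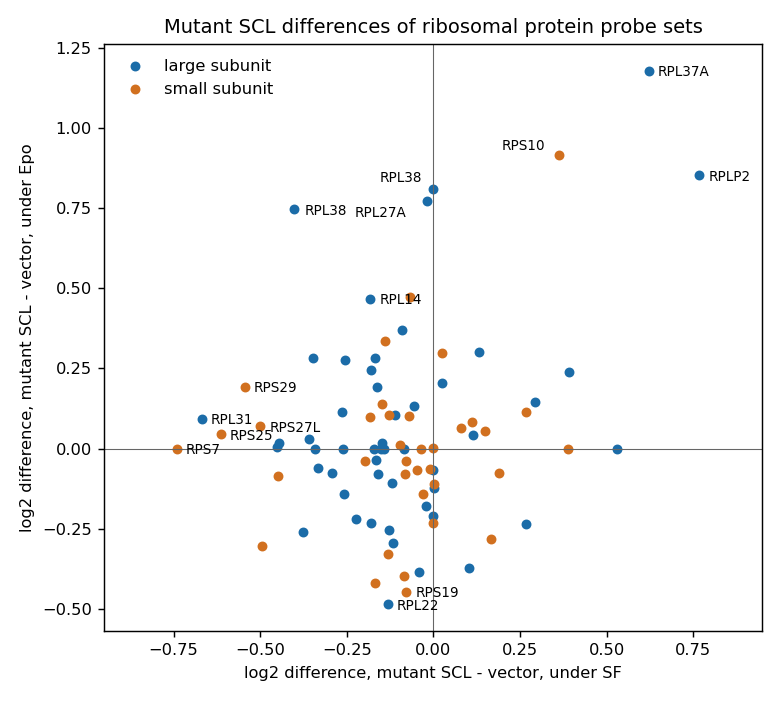
Log2 difference of mutant SCL minus vector under SF (horizontal axis) and under Epo (vertical axis) for each of 87 ribosomal protein probe sets, large subunit in blue and small in orange. Points spread around 0 with no common line, and RPL37A and RPLP2 stand apart at the upper right at 0.62 and 1.18 and at 0.77 and 0.85.

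The large and the small subunit moved little relative to each other. For SF minus GM-CSF the medians were 0.05 (51 probe sets) and 0.06 (36), and for Epo minus GM-CSF −0.02 (51) and 0.00 (35). For SF minus Epo in vector cells they were 0.08 and 0.03, for the same contrast with mutant SCL 0.00 and 0.00, for mutant SCL under SF −0.14 and −0.07, and for mutant SCL under Epo 0.00 and 0.00. Of the 7 probe sets at 2-fold, 6 were of the large subunit, which held 55 of the 93, and that of RPS10 was of the small.

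Of 19 genes of Diamond-Blackfan anaemia and the 5q deletion 14 were measured, by 29 probe sets. Their median was 0.02 for SF minus GM-CSF over 26 compared and −0.06 for Epo minus GM-CSF over 25, and RPS10 was the one gene with a 2-fold probe set. RPS19, the gene most often mutated in the disease, read 11.99, 12.12, 12.29, 12.04 and 11.90. Its other probe set read 11.95, 12.01, 12.14, 11.93 and 11.70, so both were highest on vector Epo and lowest on mutant SCL Epo. RPS14, the gene of the 5q deletion, read 10.29, 10.49, 10.32, 10.00 and 10.02, with both mutant SCL arrays below all 3 vector arrays. Another RPS14 probe set, close to the floor, went the other way. It read 4.33, 4.48, 4.29, 4.63 and 4.50 before low values were raised to the floor. RPL11 read 9.48, 9.77, 9.37, 9.50 and 9.48, with vector SF the highest. RPL35A read 10.34, 10.60, 10.38, 10.14 and 10.38. RPS24, RPL27, RPL35, RPS27 and RPS28 also stayed within 1.5-fold between any 2 arrays by their brightest probe sets.

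Genes that act with ribosomal proteins were followed by 2 lists. The first held 21 genes that also have TOP messengers, mostly translation factors. Of these 17 were measured by 46 probe sets, with a median of 0.14 for SF minus GM-CSF and 0.16 for Epo minus GM-CSF over 42 compared. Of these 42, 1 probe set passed 2-fold, of EEF1D, a subunit of the factor that reloads elongation factor EEF1A. It was lower for SF and for Epo minus GM-CSF, where 0.0493% and 0.172% of all were. With mutant SCL under Epo it was 1.14 higher (2-fold in 0.11% of all), a difference that rests on the vector Epo array too. It read 8.71, 7.63, 6.63, 8.20 and 7.78, the order of the 7 ribosomal protein probe sets, with −1.08 and −2.07 for SF and Epo minus GM-CSF, while the 3 other EEF1D probe sets gave −0.33 to 0.43 for Epo. The second list held 38 genes of ribosome assembly, of which 27 were measured by 35 probe sets, with medians of 0.10 and 0.07 over 33 compared. For Epo minus GM-CSF 3 of 33 probe sets were 2-fold higher and 1 lower, where 3.42% and 0.172% of all were. The higher ones were of MDN1 (1.49), TSR1 (1.60, others −0.29 and 0.39) and WDR12 (1.01), all factors of subunit maturation. GAR1, of the particles that modify ribosomal RNA, was the lower one (−1.07). With mutant SCL under Epo it was 1.55 higher (2-fold in 0.11% of all), which rests on the vector Epo array too. Mitochondrial ribosomal proteins, 64 probe sets of 51 genes, had medians of 0.24 and 0.25 for SF and Epo minus GM-CSF over 59 compared. Other bright probe sets had 0.26 and 0.34, and the cytosolic ones 0.06 and −0.01. These sets were not matched for signal.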

How the data were processed

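RNA of 5 TF-1 cultures was purified on silica columns, labelled with biotin and read on Affymetrix arrays, per the labels' protocols. The authors deposited log2 signals, already summarised to probe sets. That they are log2 was read from the values, and the summary method, software and normalization between arrays are not given in the sources used here. Had arrays been normalized to each other, a shift of most genes would not show. No further scaling was applied. Of 22283 probe sets 68 were array controls, 1043 had several symbols and 2107 none, by the platform's annotation.

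A probe set was compared when at least 1 of the 2 arrays was above the floor (40th percentile), and called at a log2 difference of 1 (2-fold). With 1 array per group no test was run, and the number of arrays limits the precision. The brightest 10% was taken by the mean over the 5 arrays. Named are genes with a 2-fold probe set, the extremes of each comparison by the brightest probe set, genes whose probe sets disagree by 1 log2 unit, the stalk, the Diamond-Blackfan genes and paralogues. Further genes named beside a count (probe sets at 1.5-fold, the flattest) were chosen after their values were seen. The members and lists were chosen with earlier results of these data known. The counting rule was run on simulated data with independent noise of a set size. That checks the computation and cannot tell how often these arrays give a false 2-fold call. Alternatives used limma 3.58.1 in R 4.3.3, and other steps python 3.11.15 with pandas 2.3.3.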

Additional observations from a re-analysis of the deposited data

How the results depend on the processing

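No paired analysis was possible because each group had 1 array. For 6 comparisons, 18 values (the group's median, the count at 2-fold and the gap between subunits) were recomputed under 8 alternatives, 1 of them (adding probe sets of several symbols) chosen after seeing the data. Of 144 values 127 stayed within 0.1 log2 units, or within 1.5 times for a count. That limit is about as large as the medians and gaps themselves, and a count of 0 that stayed 0 passed it too. It let pass a median for mutant SCL under SF that went from −0.11 to −0.02 with quantile normalization. It also let pass a change of sign for Epo minus GM-CSF, from −0.01 to 0.08 with centred arrays. The 127 therefore do not show that the small medians are stable. Quantile normalization moved the median to −0.068 for SF minus GM-CSF, −0.22 for Epo minus GM-CSF and 0.11 for mutant SCL under Epo, and loess to −0.15, −0.29 and 0.11. Arrays centred on their medians left 4 probe sets at 2-fold for Epo minus GM-CSF in place of 7. By the brightest probe set per gene 1, 2 and 0 genes were at 2-fold for SF minus GM-CSF, Epo minus GM-CSF and mutant SCL under Epo. By the mean of probe sets it was 0, 2 and 0, and by plain _at probe sets 0, 1 and 0, with 21, 20 and 21 compared. For Epo minus GM-CSF the brightest probe sets of RPS10, RPL37A, RPL38 and RPL14 gave −0.06, 0.11, −0.41 and −0.45, unlike their 2-fold ones. With mutant SCL, the subunit gap for SF minus Epo was 0.11 by the brightest probe set. The cause of the shifts was not tested. Dim probe sets limit RPLP2, whose second probe set was near the floor.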
